A study of Mus musculus with 12 samples.

Results

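The S100 genes described here are S100a1, S100a3, S100a4, S100a6, S100a10, S100a11, S100a13, S100a14 and S100a16, 9 of the 39017 genes counted in mouse 4T1 breast cancer cells and tumors. They were chosen by name from the S100 family with measured values of these samples already known, so their differences between groups are given as a description and not as independent evidence. The 9 are all chromosome 3 genes.

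RNA was sequenced from 12 samples of 4T1, a mouse mammary carcinoma line used to model triple-negative disease. The 6 culture samples were taken at 75% confluency from medium with 10% serum; 3 carry the genotype label POGZ KO and 3 the label POGZ WT (titled VC). The 6 tumor samples were resected 28 days after 50000 cells were placed in a mammary fat pad of 8-week-old BALB/c mice; 3 carry each label. The labels do not say how the knockout was made, what VC abbreviates, whether either line is 1 clone, or whether the 3 cultures of a label were grown separately, so p-values measure the spread between these samples, which may be technical. The culture libraries held 14724518 to 21863223 counts and the tumor libraries 4712001 to 13043831, and each KO-labelled tumor library was deeper than each VC-labelled one. Pogz RNA itself was 50.3 ± 2.03 (SD, n = 3) CPM (counts scaled to a library total of 1000000) in VC-labelled and 68.3 ± 0.428 CPM (SD, n = 3) in KO-labelled cultures, a log2 difference of 0.45 that goes against the label. In tumors it was 99.3 ± 11.9 and 107 ± 23.4 CPM (SD, n = 3 each). Gene counts do not show whether a transcript is disrupted, and the samples are therefore called KO-labelled and VC-labelled.

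S100 proteins are small calcium sensors with a pair of EF-hand loops. They act mostly as dimers that open on binding calcium and then grip partner proteins such as annexins, non-muscle myosin and p53, and several are also released and act on cell surface receptors. In breast cancer S100a4, also called metastasin, is the member best known for promoting metastasis, and it is made by stromal fibroblasts and leukocytes as well as by cancer cells.

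In mm10 (GRCm38) coordinates 7 members lie in 1 cluster of 113 kb, from 90511034 to 90624181 on chromosome 3. S100a10 and S100a11 form a second group on the same chromosome between 93520488 and 93564643. Pogz starts at 94837567, 1.27 Mb beyond the second group and 4.21 Mb beyond the cluster. S100a1, at 90511034-90514392 on the minus strand, and S100a13, at 90514435-90524581 on the plus strand, are transcribed away from each other with 42 bases between their annotated starts. S100a14 (90526856-90528837), S100a16 (90537254-90543151), S100a3 (90560578-90602702), S100a4 (90603771-90606045) and S100a6 (90612882-90624181) follow on the plus strand. A readthrough model of GENCODE M21, Gm42674, shares 302 of the 584 exon bases of S100a4 and 144 of the 5660 of S100a3. Part of the reads of these 2 genes may therefore be ambiguous.

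Promoter sequences are shown for the 2 members with the largest differences, S100a4 in tumors and S100a16 in cultures, together with the short stretch between S100a1 and S100a13, because those 2 neighbours behaved differently in culture. The sequences are from RefSeq on GRCm38.p6, plus strand, 5′ to 3′, and capitals mark TATAAA, the core of the TATA box.
S100a4, 100 bases before the start, chr3:90603670-90603769: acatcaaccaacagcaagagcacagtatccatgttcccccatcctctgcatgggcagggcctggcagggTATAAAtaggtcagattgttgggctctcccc
S100a16, 100 bases before the start, chr3:90537154-90537253: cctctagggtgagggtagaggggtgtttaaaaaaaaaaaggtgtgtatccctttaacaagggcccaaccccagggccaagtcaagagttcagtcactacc
S100a1 to S100a13, the 42 bases between the starts, chr3:90514393-90514434: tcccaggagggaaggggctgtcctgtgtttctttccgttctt

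RefSeq windows of 250 bases before the start were at hand for 7 of the 9 members, and S100a10 and S100a14 were not searched. TATAAA on either strand occurred in 2 of the 11 windows of these 7 members, for S100a3 and S100a4, against 12.4% of all 32851 promoter windows. The AP-1 motif TGANTCA occurred in 2 of the 11, for S100a11 and S100a16, against 6.75% of all windows. CACGTG, an E-box, occurred in 1 of the 11, for S100a11, against 6.02%. CAGACA, a SMAD motif, was searched on both strands because the series concerns TGFβ signaling; it is held by 17.1% of all windows and by none of the 11 windows of the 7 members. A match is only a run of letters, and its absence says nothing about the factor.

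In culture, 7 of the 9 members were called higher in KO-labelled cells and 0 lower (edgeR quasi-likelihood test over 15705 genes, adjusted p under 0.05), where 23.0% of all genes tested were called higher. The median log2 difference was 0.63 over the 9 members and -0.01 over all genes. The same 7 members had KO-labelled values above each VC-labelled value, as did 25.8% of all genes. With 3 samples a group, an exact permutation test of a single gene cannot go below p = 0.1. In the edgeR fit over all 12 samples, where tumors share in the estimate of spread and 3.60% of all genes were called higher, S100a3, S100a10 and S100a14 lost their calls (adjusted p = 0.0862, 0.498 and 0.123) and 4 members kept theirs.

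S100a4, which binds the heavy chain of non-muscle myosin IIA, measured 36.4, 29.3 and 30.7 CPM in VC-labelled cultures and 49.5, 56.2 and 52.1 CPM in KO-labelled ones. The groups did not overlap, and the log2 difference was 0.72 ± 0.08 (SE; edgeR adjusted p = 8.57e-06). S100a6, or calcyclin, first found as a gene of proliferating cells, measured 563, 601 and 639 CPM against 845, 847 and 839 CPM. Its groups were also apart, with a log2 difference of 0.50 ± 0.05 (SE; edgeR adjusted p = 4.1e-06).

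S100a16, a broadly expressed member and close relative of S100a14, measured 1.41, 1.29 and 1.4 CPM in VC-labelled cultures and 4.64, 3.94 and 5.40 CPM in KO-labelled ones. This was the largest relative difference among the members in culture, 1.79 ± 0.18 on the log2 scale (SE; edgeR adjusted p = 5.66e-06), or 3.45-fold. S100a14, found mainly in epithelia, measured 3.16, 2.52 and 2.92 CPM against 4.69, 4.14 and 4.35 CPM. Its groups did not overlap, and its log2 difference was 0.63 ± 0.15 (SE; edgeR adjusted p = 0.00363).

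S100a3, known from the hair cuticle, measured 3.33, 2.36 and 4.00 CPM in VC-labelled cultures and 5.74, 6.52 and 6.31 CPM in KO-labelled ones, a log2 difference of 0.94 ± 0.17 (SE; edgeR adjusted p = 0.000536). S100a13, which takes part in the release of FGF1 and interleukin 1α, measured 5.25, 5.63 and 4.86 CPM against 7.07, 9.85 and 9.42 CPM, a log2 difference of 0.75 ± 0.14 (SE; edgeR adjusted p = 0.000592). In both genes the KO-labelled values lay above the VC-labelled ones without overlap. S100a1, the muscle and heart member that regulates ryanodine receptors, starts 42 bases from S100a13 and measured 14.6, 11.5 and 11.2 CPM against 11.8, 12.5 and 11.8 CPM. Its groups overlapped, with a log2 difference of -0.04 ± 0.10 (SE; edgeR adjusted p = 0.785).

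S100a10, or p11, is the member that no longer binds calcium and forms a tetramer with annexin A2 that binds plasminogen and tissue plasminogen activator at the cell surface. It measured 293, 272 and 271 CPM in VC-labelled and 302, 328 and 319 CPM in KO-labelled cultures, a small log2 difference of 0.19 ± 0.05 (SE; edgeR adjusted p = 0.00408). S100a11, an annexin A1 partner that lies beside S100a10, measured 132, 107 and 102 CPM against 131, 112 and 125 CPM. These groups overlapped, with a log2 difference of 0.12 ± 0.09 (SE; edgeR adjusted p = 0.275). Without the VC-labelled culture with 132 CPM the difference was 0.26 and was called (edgeR adjusted p = 0.00268), which makes 8 members called higher.

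**Figure D1:**
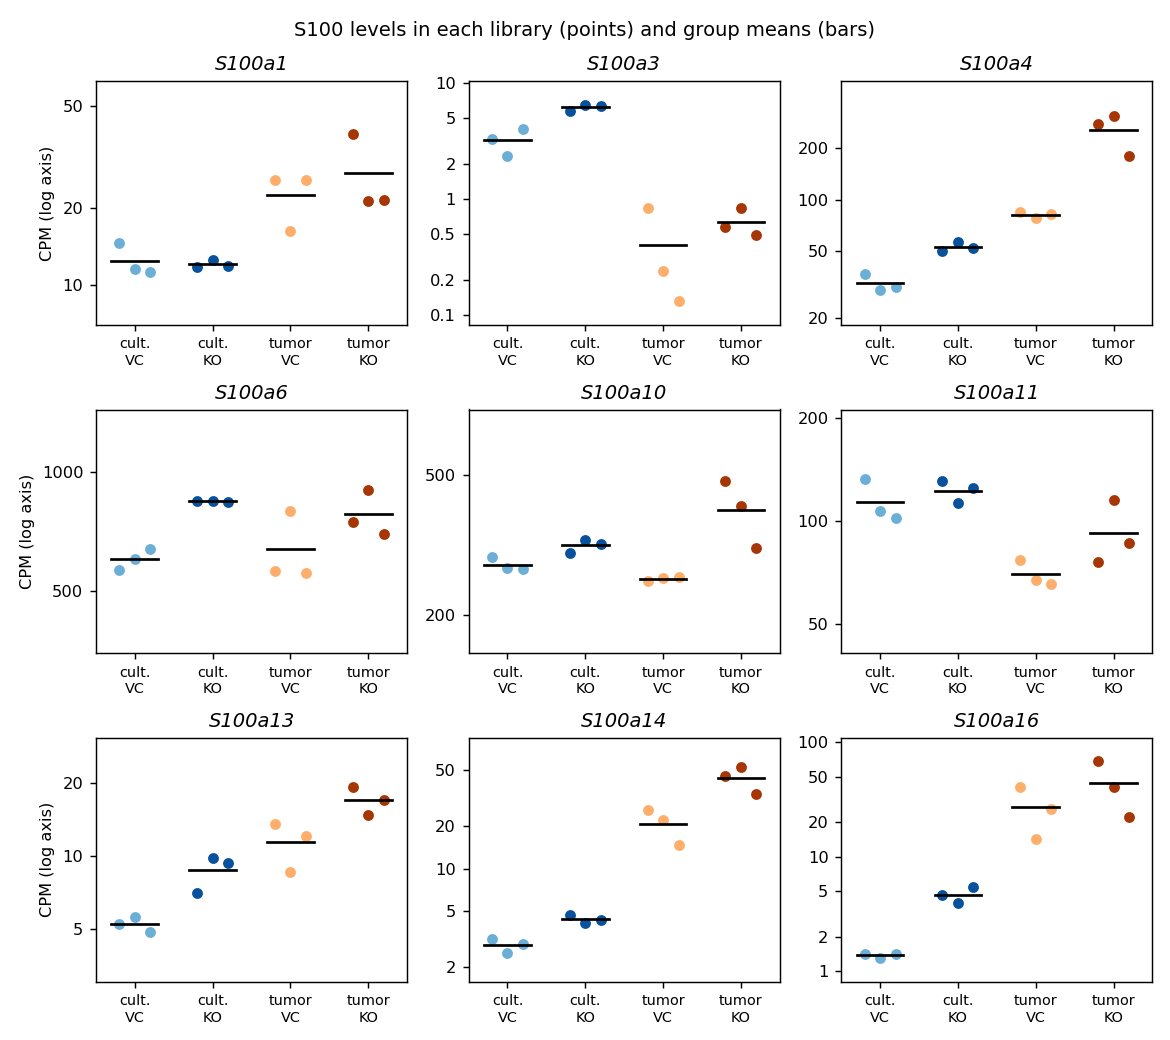
Level of each S100 gene in CPM (log axis, 1 panel a gene) in the 12 libraries; points are libraries, horizontal bars are means of the 3 libraries of a group. S100a4 stands at 180 to 312 CPM in KO-labelled tumors, above the other 9 libraries, whereas S100a3 is nearly absent from tumors.

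The culture difference has to be read beside its chromosome. The 509 chromosome 3 genes tested in culture with a mean log2 CPM of 3 or more had a median log2 difference of 0.33. Of them, 89.4% were above 0. Each chromosome's median was taken over genes at that level of expression. When each chromosome's median was taken out before the test, 5 members remained called higher in KO-labelled cultures: S100a16 (1.46), S100a3 (0.62), S100a13 (0.42), S100a4 (0.39) and S100a6 (0.17), each value a log2 difference. Under that setting 19.7% of all genes were called higher and 20.5% lower. S100a14 kept a positive value of 0.30 but lost its call (edgeR adjusted p = 0.127). S100a10 turned to -0.14 (edgeR adjusted p = 0.0295) and S100a1 moved to -0.37 (edgeR adjusted p = 0.0136), both called lower, and S100a11 turned to -0.21 without a call (edgeR adjusted p = 0.0715). Relative to the median of chromosome 3, both genes of the second group were thus below 0 and 6 of the 7 genes of the cluster above it. Other chromosomes also had culture medians away from 0, among them 0.25 on chromosome 2, -0.28 on chromosome 4 and -0.45 on chromosome 6, while chromosome 12 stood at -0.0014. What moves these medians was not tested.

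Genes outside the S100 family within 1 Mb of either end of the cluster were measured alongside. All that were tested lie on its S100a1 side, so the S100a6 side is not covered. Of 26 tested, 17 were called higher and 3 lower in KO-labelled cultures, with a median log2 difference of 0.31. Of all genes tested, 23.0% were called higher and 24.9% lower. The 5 nearest to the cluster had log2 differences of 0.30 (Chtop), 0.52 (Snapin), 0.29 (Ilf2), 0.67 (Npr1) and 0.24 (Ints3), of which 4 were called and Npr1 was not (edgeR adjusted p = 0.0722). Among the 18 better expressed neighbours (mean log2 CPM 3 or more), the log2 differences ran from -0.31 to 0.79. S100a16 and S100a3 lay above that range, S100a4, S100a6, S100a13 and S100a14 lay within it, and so did S100a1. However, S100a3, S100a14 and S100a16 were themselves below that level of expression in culture, and S100a13 was near it. Over all 26 tested neighbours the log2 differences ran from -2.03 to 0.79.

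**Figure D2:**
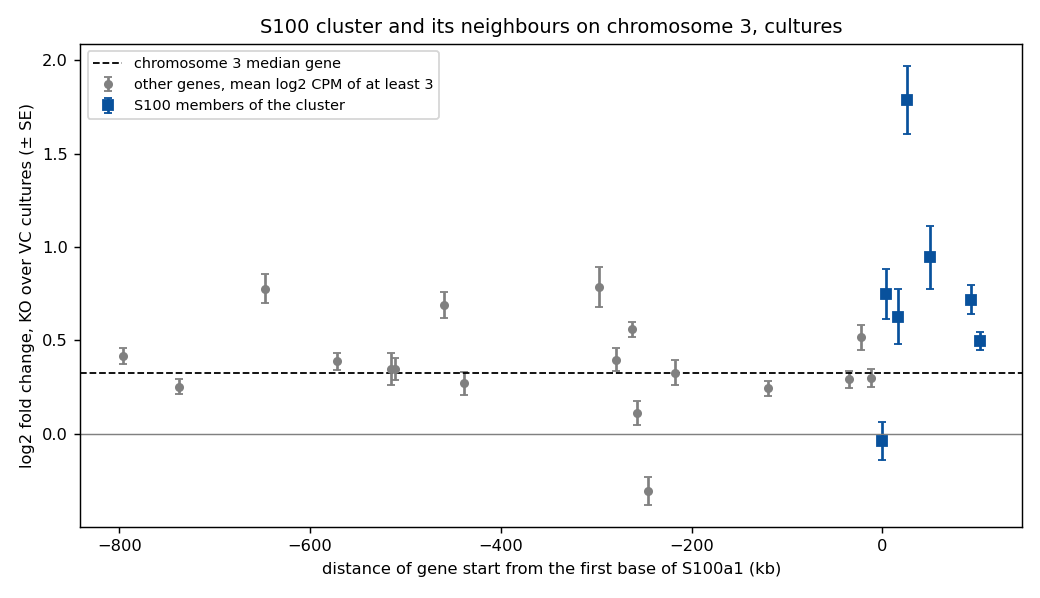
Log2 difference between KO-labelled and VC-labelled cultures (vertical axis, ± SE) against the distance of each gene's start from the first base of S100a1 in kb. Squares are the 7 members of the cluster, shown at any level of expression. Circles are the 18 other genes within 1 Mb whose mean log2 CPM was 3 or more, all on the S100a1 side. The dashed line is the median chromosome 3 gene at that level of expression, at 0.33. S100a16 at 1.79 is the highest point and S100a1 at -0.04 lies below the line.

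In tumors, S100a4 had the largest difference of the family. It measured 84.3, 77.7 and 82.8 CPM in VC-labelled tumors and 280, 312 and 180 CPM in KO-labelled ones. Even the lowest KO-labelled tumor was above the highest VC-labelled one, and the log2 difference was 1.66 ± 0.21 (SE), or 3.16-fold. The edgeR adjusted p was 0.509 and the exact permutation p was 0.1, two-sided, the smallest that 3 tumors against 3 allow.

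That adjusted p belongs to a comparison in which edgeR called 0 of 17153 genes (0.00%), with 956 at an unadjusted p under 0.05. Among the members, 0 of the 8 tested were called, 4 had an unadjusted p under 0.05 (S100a4, S100a10, S100a13 and S100a14), and 8 of 8 had a positive log2 difference, with a median of 0.62 against 0.02 over all genes. On chromosome 3, where all members lie, 74.8% of genes with a mean log2 CPM of 3 or more were above 0 in tumors. DESeq2 called 26 genes higher (0.152%) and 40 lower, S100a4 (1.66, DESeq2 adjusted p = 1e-07) and S100a14 (1.09, DESeq2 adjusted p = 0.0423) among the former. An edgeR fit over all 12 samples, in which the cultures share in the estimate of spread, also called these 2 members, with adjusted p = 0.00904 and 0.0482, among 16 genes called higher (0.0869%). The call for S100a4 in tumors thus differed between these tests, while its log2 difference stayed at 1.65 to 1.66.

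The same 4 members had KO-labelled tumors that did not overlap the VC-labelled ones, where 4.96% of all genes tested were so placed in that direction. S100a14 measured 25.9, 21.9 and 14.6 CPM in VC-labelled tumors and 45.4, 52.7 and 34.0 CPM in KO-labelled ones, a log2 difference of 1.09 ± 0.25 (SE; edgeR adjusted p = 0.824). S100a10 measured 250, 256 and 257 CPM against 480, 408 and 310 CPM, a log2 difference of 0.65 ± 0.18 (SE; edgeR adjusted p = 0.861). S100a13 measured 13.6, 8.63 and 12.1 CPM against 19.2, 14.8 and 17.0 CPM, a log2 difference of 0.58 ± 0.24 (SE; edgeR adjusted p = 0.861). The VC-labelled S100a10 values lay close together, from 250 to 257 CPM, and the KO-labelled ones were spread more widely.

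The other members overlapped between tumor groups. S100a16 ran from 14.3 to 40.7 CPM in VC-labelled tumors and from 22.2 to 68.4 CPM in KO-labelled ones, so the gene with the largest culture difference was among the most variable in tumors (log2 0.71 ± 0.47 SE). S100a11 measured 76.6, 67.2 and 65.5 CPM against 75.9, 115 and 85.9 CPM (log2 0.41 ± 0.18 SE). S100a6 measured 562, 795 and 554 CPM against 747, 902 and 698 CPM (log2 0.30 ± 0.20 SE). S100a1 measured 25.7, 16.3 and 25.6 CPM against 38.9, 21.3 and 21.4 CPM (log2 0.28 ± 0.31 SE), its highest value coming from 1 KO-labelled tumor alone. S100a3 had 4, 2 and 1 counts in VC-labelled tumors and 7, 11 and 6 in KO-labelled ones, in deeper libraries, and did not pass the filter on low counts. Without that filter its log2 difference was 0.82 ± 0.73 (SE; edgeR adjusted p = 0.857).

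The 572 chromosome 3 genes with a mean log2 CPM of 3 or more had a median log2 difference of 0.12 in tumors, and with it taken out S100a4 stood at 1.54. The 26 neighbours of the cluster tested in tumors, again all on its S100a1 side, had a median of 0.13, with 0 called. A whole tumor holds host cells, and fewer cells of a type and less RNA per cell cannot be told apart in these data.

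**Figure D3:**
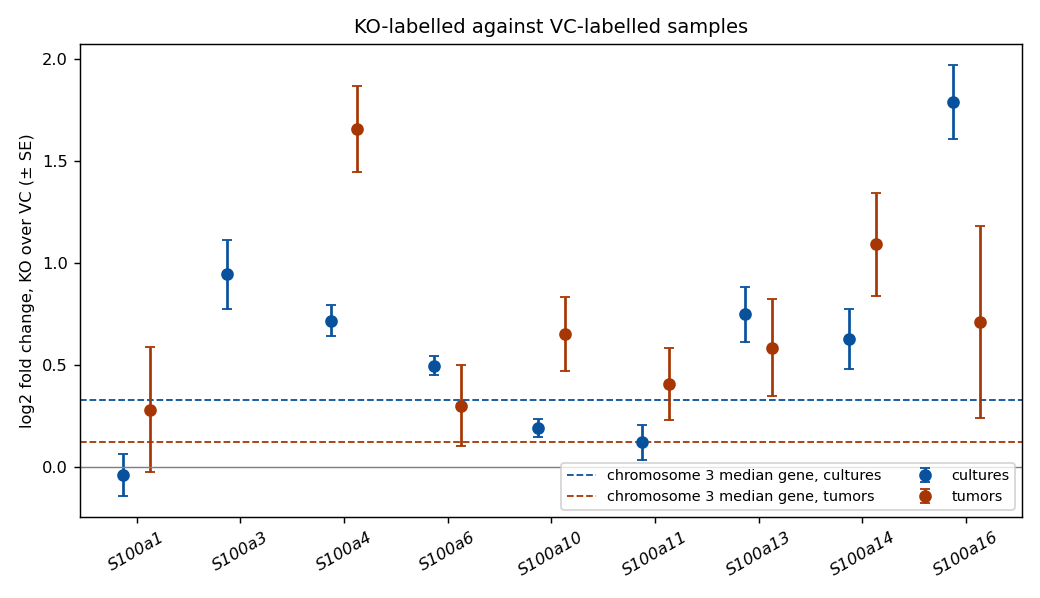
Log2 difference between KO-labelled and VC-labelled samples (± SE) for each S100 gene in cultures and in tumors. Dashed lines mark the median of chromosome 3 genes with a mean log2 CPM of 3 or more, 0.33 in cultures and 0.12 in tumors. S100a4 is the highest point in tumors (1.66) and S100a16 in cultures (1.79); S100a3 has no tumor value.

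Markers of host cells are given beside the S100a4 result, since fibroblasts and leukocytes also make this gene. The summed level of 12 fibroblast markers was 4400, 2794 and 3569 CPM in VC-labelled tumors and 3968, 7396 and 5148 CPM in KO-labelled ones; 12 of 12 markers had a positive log2 difference, with a median of 0.59 and 0 called. These sums are in the order of the S100a4 values above: the tumor highest in S100a4, at 312 CPM, also had the highest fibroblast sum, and the KO-labelled tumor with 280 CPM had a sum inside the VC-labelled range. That macrophage sum ran from 693 to 1242 CPM in VC-labelled and from 971 to 2044 CPM in KO-labelled tumors, with 10 of 11 markers positive and a median log2 difference of 0.36. Its highest value came from the KO-labelled tumor lowest in S100a4, which also held 213 CPM of B cell markers, against 4.68 to 16.8 CPM in the other 5 tumors. Sums of T and NK cell markers ran from 54.3 to 89.3 and from 62.3 to 165 CPM, of endothelial markers from 186 to 323 and from 297 to 354 CPM, and of neutrophil markers from 244 to 641 and from 183 to 768 CPM. Adipocyte marker sums ran from 6.78 to 53.9 CPM in VC-labelled and from 27.8 to 160 CPM in KO-labelled tumors, with 7 of 7 tested markers positive (median log2 1.5). The cancer epithelial list ran lower in KO-labelled tumors, 1946 to 2294 CPM against 2099 to 2767 CPM, with 2 of 11 tested markers positive (median log2 -0.18). No marker of these lists was called between the tumor groups, and the part of the cells they mark in the tumor values of S100a4 was not tested. In the cultures the fibroblast markers Dcn, Lum, Thy1 and Dpt were at 0, and the sum of the list was 33.9 to 36.3 CPM in VC-labelled and 44.2 to 46.0 CPM in KO-labelled cells. The 12 epithelial markers summed to 3685 to 4041 CPM in VC-labelled and 4182 to 4275 CPM in KO-labelled cultures. Single markers of this list went both ways: Krt18 rose from 613 ± 36.1 to 863 ± 10.6 CPM, and Epcam fell from 326 ± 20.5 to 230 ± 2.46 CPM (SD, n = 3 each). Of 11 tested in culture, 4 were called higher and 6 lower, where 23.0% and 24.9% of all genes were. The sums of both lists thus also differed between labels without host tissue. In the fibroblast list Postn rose from 6.27 ± 1.02 to 25.1 ± 0.664 CPM and Pdgfra fell from 26.5 ± 1.68 to 15.6 ± 0.530 CPM (SD, n = 3 each). Of its 4 markers tested in culture, 2 were called higher and 1 lower. In culture 4 of 11 tested epithelial markers had a positive log2 difference (median -0.20), as had 3 of 4 tested fibroblast markers (median 0.63).

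Whether the difference between labels was larger in tumors than in cultures was tested over all 12 samples. For S100a4 the tumor difference exceeded the culture difference by 0.95 ± 0.24 on the log2 scale (SE), which missed the threshold (edgeR adjusted p = 0.0705). DESeq2, which called 5.17% of all genes here, gave 0.96 and a call (adjusted p = 0.00603). With the chromosome medians taken out edgeR called 1.68% of all genes, S100a4 among them at 1.15 (adjusted p = 0.0322). Without the KO-labelled tumor with 180 CPM of S100a4, edgeR called S100a4 at 1.14 (adjusted p = 0.00393) and S100a10 at 0.62 (adjusted p = 0.0451), with 1.82% of all genes called. These were the only 3 of 20 alternatives that called S100a4, and the other 17 did not. Over the 20 its excess ran from 0.81 to 1.15. No member was called in the main test, in which 2.05% of 18419 genes were called, and 2 members, S100a4 and S100a10, had an unadjusted p under 0.05, as did 15.4% of all genes. That share of 2.05% ranged from 0.777% to 8.31% when each sample was left out in turn, highest without the KO-labelled tumor with 280 CPM of S100a4. For S100a16 the order was opposite, with a tumor difference smaller by 1.05 ± 0.61 (SE; edgeR adjusted p = 0.444).

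S100a4 and S100a6 lie next to each other apart from S100a5, and their ratio within a library does not depend on that library's depth. Per 100 S100a6 counts, VC-labelled cultures held 6.46, 4.87 and 4.81 S100a4 counts and KO-labelled cultures 5.85, 6.63 and 6.21. In culture the groups overlapped (exact permutation p = 0.3, two-sided), although both genes were called higher there. In tumors the ratio was 15, 9.78 and 14.9 in VC-labelled and 37.5, 34.5 and 25.8 in KO-labelled samples, with group means of 13.2 ± 3.0 and 32.6 ± 6.08 (SD, n = 3 each). These groups were apart by a ratio of means of 2.46 (exact permutation p = 0.1, two-sided, the smallest possible).

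**Figure D4:**
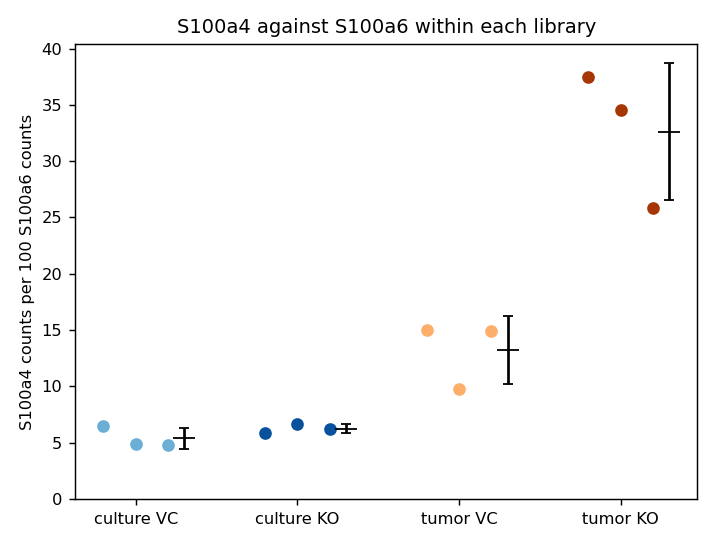
S100a4 counts per 100 S100a6 counts in each of the 12 libraries, with the mean and SD of each group of 3 at its right. The cultures lie between 4.81 and 6.63, VC-labelled tumors between 9.78 and 15, and KO-labelled tumors between 25.8 and 37.5.

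Tumors were then set against cultures of the same label. The comparison covers cancer cells with host tissue against cancer cells alone, and the pair of contrasts share 1 fit but no samples. In VC-labelled samples 5 members were called higher in tumors, where 37.9% of all genes were, and 2 lower, where 27.0% were. In KO-labelled samples 6 were called higher (37.7% of all genes) and 2 lower (26.4%). The median over all genes was a log2 difference of 0.17 in VC-labelled and 0.16 in KO-labelled samples.

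S100a16 and S100a14 had the largest tumor levels relative to culture. S100a16 was higher in tumors by 4.31 ± 0.48 in VC-labelled samples (SE; edgeR adjusted p = 1.16e-05) and by 3.26 ± 0.42 in KO-labelled ones (SE; edgeR adjusted p = 4.15e-05), on the log2 scale. S100a14 was higher by 2.87 ± 0.22 and 3.35 ± 0.22 (SE; edgeR adjusted p = 8.65e-07 and 2.16e-07). S100a4 was higher by 1.37 ± 0.17 in VC-labelled and by 2.32 ± 0.17 in KO-labelled samples (SE; edgeR adjusted p = 2.83e-05 and 5.68e-07), that is 2.59-fold and 4.99-fold. Its neighbour S100a6 was called in neither, at 0.11 ± 0.14 and -0.08 ± 0.14 (SE). S100a13, with 1.14 and 0.98, and S100a1, with 0.88 and 1.21, were called higher in tumors under both labels.

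S100a3 and S100a11 went the other way. S100a3 was lower in tumors by log2 differences of -3.15 ± 0.46 and -3.23 ± 0.36 (SE; edgeR adjusted p = 9.74e-05 and 1.41e-05), with at most 11 counts in any tumor. It did not pass the filter on low counts in tumors alone, and passed it here with the cultures, where it is high. Its p-values and its place among the members called lower are therefore given as description only. S100a11 was lower by -0.68 ± 0.15 and -0.38 ± 0.15 (SE; edgeR adjusted p = 0.00172 and 0.0361). S100a10 was not called in VC-labelled samples, at -0.10 ± 0.13 (SE; edgeR adjusted p = 0.512), and was called higher in KO-labelled tumors at 0.37 ± 0.13 (SE; edgeR adjusted p = 0.0284). The KO-labelled calls of S100a10 and S100a11 were both near the threshold and were lost under other settings.

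**Figure D5:**
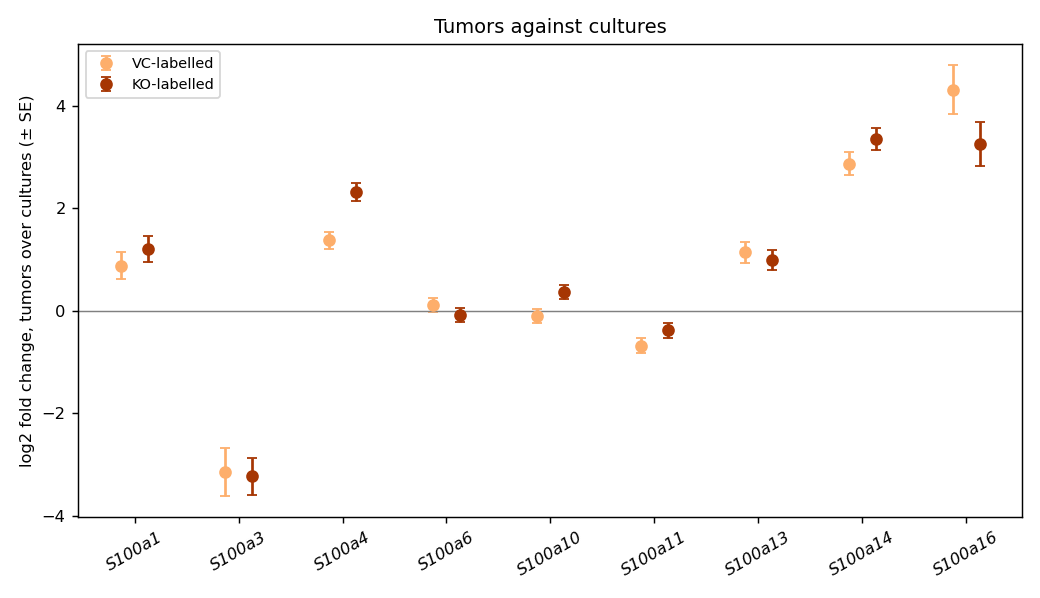
Log2 difference between tumors and cultures (± SE) for each S100 gene, separately for VC-labelled and KO-labelled samples. S100a16 and S100a14 lie highest, at 2.87 to 4.31, and S100a3 lowest, at -3.15 and -3.23.

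Levels of different members were compared as CPM per kb of exon (union exon length in GENCODE M21). S100a6 had the highest mean in each group, from 440 ± 27.9 in VC-labelled cultures to 617 ± 2.95 in KO-labelled cultures (SD, n = 3 each). S100a10 and then S100a11 followed in both culture groups, where their ranges overlapped. S100a4 came next in cultures, at 55.0 ± 6.39 and 90.0 ± 5.77, and stood between S100a10 and S100a11 in VC-labelled tumors at 140 ± 5.88, overlapping S100a11 (SD, n = 3 each). In KO-labelled tumors S100a4 came after S100a6 at 441 ± 118 (SD, n = 3), and its range overlapped those of S100a6 above it and S100a10 below it. S100a1, S100a13, S100a14 and S100a16 filled the middle places, and in both tumor groups each of them overlapped its neighbour in order. S100a3 was lowest in each group, although its union length of 5660 bases includes a long annotated transcript that lowers its value per kb. S100a4 shares 302 of its 584 exon bases with Gm42674, and the effect of this on its place was not tested. Summed over the 9 members, levels were 1051 ± 17.7 CPM in VC-labelled and 1371 ± 9.89 CPM in KO-labelled cultures, and 1125 ± 117 and 1664 ± 262 CPM in the tumors (SD, n = 3 each).

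Other S100 genes were measured in the same libraries. S100a7a, a psoriasin relative beside the cluster, was called higher in KO-labelled cultures, 1.92 ± 0.313 against 3.43 ± 0.152 CPM (SD, n = 3 each; log2 0.84, edgeR adjusted p = 0.00147), and was not called in tumors (log2 0.20 ± 0.47 SE). S100a8 and S100a9, the subunits of calprotectin and abundant in neutrophils, had at most 9 counts in total over the 3 cultures of either label. In tumors S100a8 was 78.9 ± 59.0 and 59.5 ± 56.1 CPM and S100a9 was 133 ± 96.9 and 116 ± 115 CPM in VC-labelled and KO-labelled samples (SD, n = 3 each). Their log2 differences between tumor groups were -0.43 ± 0.86 and -0.22 ± 0.84 (SE), opposite in sign to the 8 tested members and far within their errors. S100b, S100a5 and S100g had means under 1 CPM in each group, and S100z was at 0 counts in all 12 libraries. S100a2, annotated inside the cluster at 90590247-90591508 and named after its values were seen, had group means of 0.053 to 0.19 CPM and was too low to be tested.

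The 32 listed partners and receptors of S100 proteins moved in both directions in culture. Of 27 tested, 10 were called higher and 12 lower in KO-labelled cells, with a median log2 difference of -0.04. All genes tested also moved in both directions, with 23.0% called higher and 24.9% lower. Anxa1, the annexin bound by S100a11, rose from 1478 ± 92.0 to 2298 ± 8.96 CPM (SD, n = 3 each; log2 0.64), and Myh14, a non-muscle myosin heavy chain, rose by a log2 difference of 0.66. Padi3, which citrullinates S100a3, fell from 48.4 ± 0.444 to 10.8 ± 1.67 CPM (SD, n = 3 each; log2 -2.16, edgeR adjusted p = 1.73e-09). Also called lower were Il1a (log2 -0.87), whose product is exported with S100a13, Plat (-0.79) and Plaur (-0.65), of the plasminogen system that S100a10 serves, and Ryr1 (-1.13), a ryanodine receptor bound by S100a1. Anxa2, named after its values were seen because it binds S100a10, was 673 ± 25.2 and 714 ± 21.8 CPM and was not called (SD, n = 3 each; log2 0.09, edgeR adjusted p = 0.089).

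In tumors 28 partners were tested and 0 were called, with a median log2 difference near 0 (-0.0044). Padi3 was the only one with groups that did not overlap, 6.04 ± 2.34 CPM in VC-labelled and 1.24 ± 0.422 CPM in KO-labelled tumors (SD, n = 3 each; log2 -2.29 ± 0.43 SE, edgeR adjusted p = 0.647). Anxa2 was 526 ± 87.0 and 525 ± 126 CPM in the same tumors (SD, n = 3 each), in which its partner S100a10 did not overlap between labels.

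The genes whose levels followed S100a4 most closely were sought among the 10751 genes whose mean log2 CPM was 3 or more. Over the 12 samples Pearson's r of log2 CPM was highest for Sat1 (0.95), Socs6 (0.95), Fem1c (0.95), Flot1 (0.95) and Nudt9 (0.94), with 4 groups and 2 very different sample types shared by all points. Of the members, S100a14 (0.94), S100a13 (0.91) and S100a16 (0.90) came closest, S100a11 ran opposite (-0.38), and S100a3, too low on average, was left out. With the 4 group means taken out, the closest genes were Cnih4 (0.97), Gpsm1 (0.93), Ccdc85c (0.92), Obfc1 (0.92) and Macc1 (0.91), and the closest member was S100a10 (0.82), followed by S100a16 (0.60) and S100a14 (0.53). S100a6, the neighbour of S100a4, had an r of 0.16 on that scale. These likenesses rest largely on the spread among the tumors, where the KO-labelled tumor lowest in S100a4 was also lowest of its group in S100a6, S100a10, S100a14 and S100a16.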

How the data were processed

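The deposited tables hold raw counts per gene, one table for cultures and one for tumors; per the submitters' processing notes the authors used Trimmomatic 0.32, STAR 2.3.0e and featureCounts 1.4.4 on mm10. Per the labels' protocols the libraries were ribosomal RNA-depleted; the strand setting and annotation are not given in the sources used here. CPM values are counts scaled to a library total of 1000000. Tests used edgeR 4.0.16 (R 4.3.3) quasi-likelihood fits on the counts, filterByExpr, TMM scaling and Benjamini-Hochberg adjustment over all genes tested, with a call at an adjusted p under 0.05. Each label comparison was fitted on its own 6 samples, and tests between tumors and cultures on all 12. Members and gene lists were chosen with earlier results of these data known. All 9 members were named; other genes followed fixed rules: the 7 other S100 genes listed, partners called at an absolute log2 difference of at least 0.5, the 5 nearest neighbours and the 5 genes most like S100a4. Scripts were tested on simulated data. Alternatives were DESeq2 1.42.0, limma 3.58.1 (voom), other scalings, filters and thresholds, thinning, each sample left out, a replicate block and removal of chromosome medians. Gene positions come from GENCODE M21. Deviations of same-numbered cultures from their group means correlated weakly.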

Additional observations from a re-analysis of the deposited data

How the results depend on the processing

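Of 812 values of single members under the alternatives, 770 kept their direction and their side of the threshold, 10 gained a call, 19 lost one and 13 changed sign. Taking out chromosome medians turned S100a10 to -0.14 and S100a11 to -0.21 in culture and left 2 members called lower there; for the excess of the tumor difference over the culture difference it turned S100a3 to 0.13, S100a6 to 0.014 and S100a13 to 0.049, and called 1 member higher. DESeq2 called 2 members higher in tumors and 1 for that excess; over all genes it called 26 higher and 40 lower in tumors, where edgeR called 0. One fit of all 12 samples called 2 members higher in tumors and 4 in culture, where it called 663 genes higher and 838 lower, against 3610 and 3913 in the fit of the cultures alone. KO-labelled tumors against KO-labelled cultures had 1 member called lower in place of 2 at an adjusted p under 0.01, under RLE or upper-quartile scaling and with all libraries thinned to the smallest. Without a filter on low counts S100a6 in VC-labelled tumors against cultures was -0.076. With each sample left out in turn, the log2 difference of S100a1 ranged from -0.097 to 0.10 in culture and from -0.076 to 0.43 in tumors, that of S100a6 between VC-labelled tumors and cultures from -0.076 to 0.19, and the excess from -0.035 to 0.49 for S100a1 and from -0.51 to 0.78 for S100a3; 0 to 2 members were called for the excess and 1 to 2 lower in KO-labelled tumors against cultures. The cause was not tested, except that a fit of 12 samples shares 1 spread and leaving out a sample leaves fewer. S100a3 in tumors passed the filter in 4 alternatives, with log2 differences of 0.39 to 0.85 and no call. In culture 7 to 8 members were called higher with each sample left out, S100a11 ranging from 0.057 to 0.26.

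The deviations of same-numbered cultures correlated at -0.093, -0.012 and 0.041, and those of differently numbered ones at -0.13 to 0.13. With 3 cultures a label, this cannot show whether a shared number marks a shared batch. With a replicate block 7 members were called higher and 0 lower in culture, as without it, and 7237 genes were called over all in place of 7523. The tumors share no replicate numbers. With 4712001 to 8338828 counts in VC-labelled tumors, S100a3 and most silent family members are below what depth allows to compare.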
